A study of Mus musculus with 6 samples.

Results

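Cubn, Amn, Lrp2, Dab2, Lgmn and Vil1 encode the uptake and brush border machinery of absorptive epithelia such as the visceral endoderm. These 6 genes, of 35591 rows in the table, were chosen by their measured values, for the spread of log2 RPKM between the same 6 libraries described here, so that spread is a description and carries no test. All 6 passed the filter on low values, which kept 14134 genes, and all 6 were among the 13617 autosomal genes tested. RNA was sequenced from tailbud tissue containing the presomitic mesoderm (PSM), dissected from mouse embryos with 8 somites at E8.5 on the FVB/NJ background. The WT group held 3 Smchd1+/+ embryos and the MommeD43 group held 3 embryos homozygous for MommeD43, an ENU-induced missense allele of Smchd1, a gene for a chromatin protein that takes part in gene silencing. Replicate 1 of each genotype was male, and these male embryos had the same mother. Replicates 2 and 3 of each genotype were female, and the 4 females had different mothers. Each library came from 1 embryo. A missense allele need not alter the level of its own RNA, so Smchd1 RNA does not check the genotype.

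The visceral endoderm is the epithelium that lies on the outside of the early rodent embryo and later lines the yolk sac, where it takes up maternal proteins and lipids before the placenta works. On its apical surface, cubilin (Cubn) binds many ligands but has no membrane anchor of its own, and amnionless (Amn) anchors it and carries it to the surface. Megalin (Lrp2) is a large receptor of the LDL receptor family that works beside the cubilin and amnionless pair. The adaptor Dab2 binds the tails of such receptors and links them to clathrin, legumain (Lgmn) is a cysteine protease of lysosomes, where the cargo ends, and villin (Vil1) bundles actin in the microvilli that carry the receptors. The same set is used by the proximal tubule of the kidney, and megalin is also made by the neuroepithelium.

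The total number of reads ranged from 10957916 to 47298348 per library, a ratio of 4.32, and counting error was wider in the shallow libraries. All pairs of libraries, within and across genotypes, differed by more than counting error, with a mean chi-square per gene of 4.70 to 24.9, so no library was a copy of another. WT replicate 1 stood apart from the rest, with a voom sample weight of 0.33 against 0.84 to 1.74 in the other libraries. The labels name the tissue as tailbud, while their source field names NSCs. All 10 tailbud markers passed the filter, with T, which marks posterior mesoderm progenitors, at 117 to 188 RPKM (reads scaled by exon length and by library size). Of the 7 neural markers, Sox2 was at 11.8 to 15.4 RPKM, Irx3 at 2.42 to 5.67 RPKM and Pax3 at 0.889 to 1.65 RPKM. Pax6, Nkx6-1 and Sox1 were below 0.4 RPKM in every library, and Olig2 had at most 2 reads in any library.

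The promoters of the 3 receptor components and of the adaptor Dab2 are shown. The order of libraries for Lrp2 differed from those of all other members, including Lgmn and Vil1, whose windows are not printed. Each window runs from 250 bases before to 50 bases after a transcription start, 5′ to 3′ on the strand of the gene, from RefSeq on GRCm38.p6, and all 6 genes matched, with 8 windows. Capitals mark matches to the GATA motif, searched as AGATAA and TGATAA on both strands. The Cubn window is chr2:13491827-13492126 on the minus strand, Amn is chr12:111270846-111271145 on the plus strand, Lrp2 is chr2:69585980-69586279 on the minus strand, and the Dab2 window shown, the upstream of its pair, is chr15:6299539-6299838 on the plus strand.
Cubn: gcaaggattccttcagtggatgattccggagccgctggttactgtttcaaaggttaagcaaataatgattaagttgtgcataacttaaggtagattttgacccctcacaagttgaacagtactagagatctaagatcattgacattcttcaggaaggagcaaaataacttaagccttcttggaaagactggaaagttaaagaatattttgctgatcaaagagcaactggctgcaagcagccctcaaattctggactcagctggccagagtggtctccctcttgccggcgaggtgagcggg
Amn: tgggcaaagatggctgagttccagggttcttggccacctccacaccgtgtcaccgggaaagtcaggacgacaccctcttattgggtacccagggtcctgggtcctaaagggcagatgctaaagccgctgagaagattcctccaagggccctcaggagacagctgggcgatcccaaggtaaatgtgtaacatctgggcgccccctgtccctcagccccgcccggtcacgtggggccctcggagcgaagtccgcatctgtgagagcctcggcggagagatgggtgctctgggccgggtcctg
Lrp2: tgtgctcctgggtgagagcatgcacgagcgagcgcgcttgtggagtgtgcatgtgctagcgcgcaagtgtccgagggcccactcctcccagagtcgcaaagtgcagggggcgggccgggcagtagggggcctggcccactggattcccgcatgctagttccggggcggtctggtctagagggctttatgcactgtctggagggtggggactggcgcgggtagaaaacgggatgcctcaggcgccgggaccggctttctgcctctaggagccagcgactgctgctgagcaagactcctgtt
Dab2: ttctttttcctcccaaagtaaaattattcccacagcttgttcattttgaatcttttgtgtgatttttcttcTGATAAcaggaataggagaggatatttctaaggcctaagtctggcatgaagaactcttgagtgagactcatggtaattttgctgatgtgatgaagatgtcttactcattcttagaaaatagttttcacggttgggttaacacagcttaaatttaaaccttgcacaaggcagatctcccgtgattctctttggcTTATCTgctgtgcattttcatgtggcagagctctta

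The GATA motif was found in 1 of the 8 windows, the Dab2 window above, where TGATAA began at -179 on the plus strand and AGATAA lay on the minus strand at 15 from the start. It occurred in 18.6% of all 32851 windows. The TATA box TATAAA, held by 13.6%, occurred once, in the downstream window of Lgmn (chr12:102439043-102439342, minus strand). HNF4 (CAAAGTCCA or CAAAGGTCA, 0.950%) and FOXA (TGTTTAC or TATTTAC, 6.54%) had no match in the 8 windows. These are matches of letters, on both strands, and no match says only that these letters are not in the window. The Lrp2 window was 65.0% GC with 20 CpGs and the Cubn window was 44.3% GC with 5 CpGs, against a median of 52.7% GC over all windows. The Amn window, at 62.3% GC and 15 CpGs, was closer to that of Lrp2 in composition, although the Amn profile across libraries was closer to that of Cubn.

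Cubn (ENSMUSG00000026726, GRCm38 chr2:13276338-13491813, minus strand) was the most variable of the 6 genes. It was at 2.06, 5.30 and 4.80 RPKM in WT replicates 1, 2 and 3, on 1126, 1871 and 1192 reads. In MommeD43 replicates 1, 2 and 3 it was at 6.90, 0.487 and 0.706 RPKM, on 1130, 344 and 138 reads. The highest and the lowest library were therefore both MommeD43, 14.2-fold apart, and the WT libraries lay between them. The exact Poisson 95% intervals, which cover counting error only, were 6.51 to 7.32 RPKM in MommeD43 replicate 1 and 0.437 to 0.541 RPKM in MommeD43 replicate 2. Group means were 4.05 ± 1.75 RPKM in WT and 2.70 ± 3.64 RPKM in MommeD43 (SD, n = 3 each). The difference between genotypes was a log2 fold change of -1.49 (SE 0.90, 95% interval -3.55 to 0.57), MommeD43 minus WT throughout, with an adjusted p of 0.999 by limma.

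Amn (ENSMUSG00000021278, chr12:111271095-111276426, plus strand), which anchors cubilin, had the same order of libraries as Cubn. It was at 3.81, 5.21 and 4.21 RPKM in the WT replicates, on 257, 227 and 129 reads. It was at 6.83, 0.975 and 1.45 RPKM in the MommeD43 replicates, on 138, 85 and 35 reads. The WT libraries lay close together and the MommeD43 libraries lay on both sides of them, with 7.01-fold between the extremes. The log2 fold change was -1.04 (SE 0.62, 95% interval -2.45 to 0.38), with an adjusted p of 0.999 by limma.

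Cubn and Amn did not keep a fixed ratio. Cubn was at 1.02, 1.14 and 1.01 times the RPKM of Amn in WT replicates 2 and 3 and MommeD43 replicate 1, the 3 libraries with most Cubn. In WT replicate 1 and MommeD43 replicates 2 and 3 the ratio was 0.541, 0.499 and 0.487. The ratio was thus lower in the 3 libraries with least Cubn, with no value between these sets. The lowest Amn count was 35 reads, with an exact Poisson 95% interval of 1.01 to 2.02 RPKM.

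Lrp2 (ENSMUSG00000027070, chr2:69424340-69586065, minus strand) differed from the other members in its order of libraries. It was at 2.35, 5.06 and 3.49 RPKM in the WT replicates, on 1439, 1997 and 969 reads. It was at 3.84, 4.18 and 3.60 RPKM in the MommeD43 replicates, on 703, 3300 and 788 reads. Both extremes were WT, 2.15-fold apart, and the MommeD43 libraries lay within 1.16-fold of each other in the females with the male between them. Group means were 3.64 ± 1.36 RPKM in WT and 3.87 ± 0.288 RPKM in MommeD43 (SD, n = 3 each). The genotype difference in log2 RPKM was 0.16 (95% interval -0.40 to 0.72), with an adjusted p of 0.999 by limma, and it was -0.12 without WT replicate 1.

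The ratio of Cubn to Lrp2 therefore differed widely between libraries. It was 0.875, 1.05 and 1.38 in the WT replicates and 1.80, 0.117 and 0.196 in the MommeD43 replicates, on the RPKM scale. The root mean square difference between the centred log2 profiles of Cubn and Lrp2 was 1.48, the largest of the 15 pairs of members. This measure also takes in the wide spread of Cubn. Lrp2 differed from Lgmn by 0.55 and from Dab2 by 0.59, where Cubn differed from them by 1.02 and 0.92.

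Dab2 (ENSMUSG00000022150, chr15:6299788-6440712, plus strand), the endocytic adaptor, was at 8.04, 15.3 and 15.1 RPKM in the WT replicates, on 2162, 2647 and 1846 reads. It was at 19.7, 6.83 and 7.05 RPKM in the MommeD43 replicates, on 1586, 2373 and 677 reads. MommeD43 replicate 1 was again the highest and MommeD43 replicate 2 the lowest, 2.88-fold apart, and WT replicate 1 lay nearer the low end. Group means were 12.8 ± 4.13 RPKM in WT and 11.2 ± 7.38 RPKM in MommeD43 (SD, n = 3 each). The genotype difference in log2 RPKM was -0.32 (SE 0.42, 95% interval -1.28 to 0.63), with an adjusted p of 0.999 by limma.

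Lgmn (ENSMUSG00000021190, chr12:102394084-102439813, minus strand), the lysosomal protease, had the highest level per length. It was at 25.7, 33.1 and 34.9 RPKM in the WT replicates and at 46.8, 18.1 and 19.6 RPKM in the MommeD43 replicates, on 597 to 2182 reads. The WT range lay inside the MommeD43 range, and the extremes were 2.58-fold apart. The log2 fold change was -0.28 (SE 0.32, 95% interval -1.02 to 0.47), with an adjusted p of 0.999 by limma. Dab2 and Lgmn had the most alike profiles of the 15 pairs, with a root mean square difference of 0.19 on the log2 scale, and the ratio of Dab2 to Lgmn stayed between 0.313 and 0.461 in the 6 libraries.

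Vil1 (ENSMUSG00000026175, chr1:74409376-74435559, plus strand), the actin bundler of microvilli, had the lowest mean level of the 6 genes. It was at 1.16, 2.83 and 3.05 RPKM in the WT replicates, on 151, 237 and 180 reads. It was at 3.80, 0.798 and 0.839 RPKM in the MommeD43 replicates, on 148, 134 and 39 reads. It had the same highest and lowest libraries as Dab2, 4.77-fold apart, and both MommeD43 females lay below every WT library. The log2 fold change was -0.66 (SE 0.62, 95% interval -2.08 to 0.76), with an adjusted p of 0.999 by limma.

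**Figure D1:**
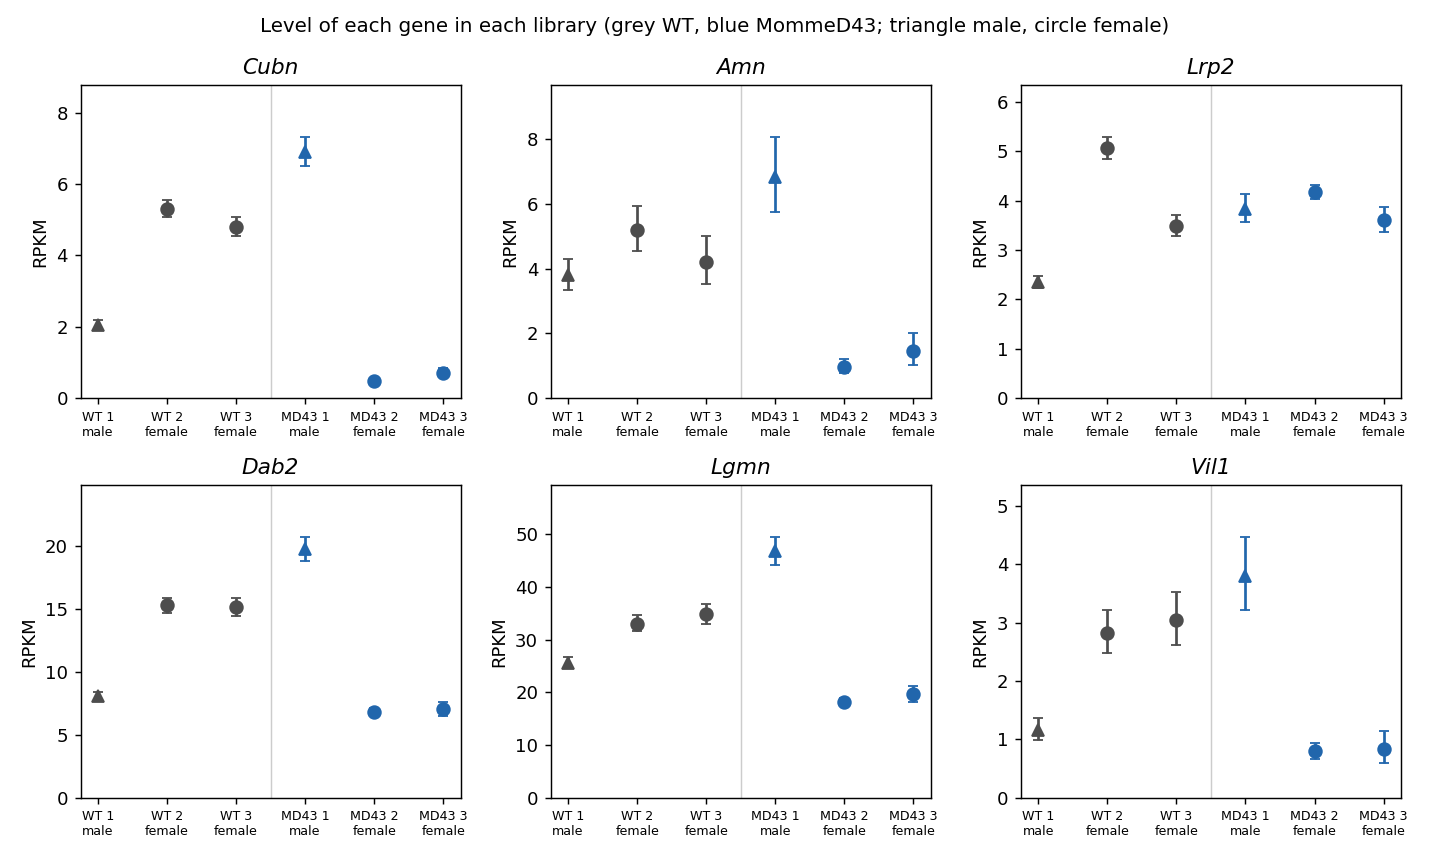
RPKM of each gene (linear axes from 0) in each library, with triangles for males, circles for females and error bars for exact Poisson 95% intervals of the reads. For Cubn, Amn, Dab2, Lgmn and Vil1, MommeD43 replicate 1 is the highest library and MommeD43 replicate 2 the lowest, while Lrp2 runs from 2.35 RPKM in WT replicate 1 to 5.06 RPKM in WT replicate 2.

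Ordered by mean RPKM over the 6 libraries, Lgmn came first and Dab2 second, and Lgmn was above Dab2 in every library. Lrp2, Amn and Cubn followed at means of 3.75, 3.75 and 3.38 RPKM, and their order changed from library to library. The SD of log2 RPKM over the 6 libraries was 1.61 for Cubn, 1.11 for Amn, 1.01 for Vil1, 0.67 for Dab2, 0.52 for Lgmn and 0.37 for Lrp2. Lrp2 was thus the least variable member, at percentile 82.9 of all tested genes, where Cubn was at percentile 99.5. Within genotypes, the SD of Cubn was 0.75 in WT and 2.07 in MommeD43, whereas that of Lrp2 was 0.55 in WT and 0.11 in MommeD43.

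The study compared the genotypes, and over all 6 libraries 0 of the 6 genes passed an adjusted p of 0.05 by limma. Among all 13617 autosomal genes, 0 passed (0%), 327 (2.40%) had an unadjusted p under 0.05, and voom on recovered reads also called 0, with 788 at an unadjusted p under 0.05. None of the 6 genes was among the 327, while Cubn, Amn and Vil1 were among the 788 of 13617. Their log2 fold changes by voom with sample weights were -2.11, -1.43 and -1.12, each with an adjusted p of 0.825. That fit gave WT replicate 1 a weight of 0.33. The members were chosen for spread over these same libraries, so nothing is read from their count. The WT and MommeD43 libraries overlapped for all 6 genes, where 7.08% of all tested genes had groups that did not overlap. The 95% interval of Cubn reached from -3.55 to 0.57, so a genotype difference of several fold was not detectable at this spread between embryos. The p-values measure the spread between single embryos.

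The comparison differed within sexes. Among the 4 females, both MommeD43 libraries lay below both WT libraries for Cubn, Amn, Dab2, Lgmn and Vil1, 5 of 6 genes. Of all tested genes, 20.2% were lower in both MommeD43 females in this way and 42.0% did not overlap in either direction. At an unadjusted p under 0.05 by limma, 5 of 6 members were lower in MommeD43, against 4.11% of all tested genes (8.72% in either direction). The members were chosen for spread over these same libraries, so nothing is read from these member counts. The level in the WT females was 8.61-fold that of the MommeD43 females for Cubn, 3.94-fold for Amn, 3.59-fold for Vil1, 2.19-fold for Dab2, 1.80-fold for Lgmn and 1.08-fold for Lrp2. In limma on the 4 females, with Benjamini-Hochberg adjustment over the same genes, Cubn (log2 fold change -3.11, adjusted p = 0.00606), Dab2 (-1.13, adjusted p = 0.00606), Lgmn (-0.85, adjusted p = 0.0138) and Vil1 (-1.84, adjusted p = 0.0288) were called. Amn (-1.98, adjusted p = 0.0541) and Lrp2 (-0.12, adjusted p = 0.861) were not.

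Of all tested genes 10 (0.0734%) were called among the females, all lower in MommeD43. Besides the 4 members these were Ttr, Apom, Apob, Rbp4, Pla2g12b and 2610528J11Rik. The first 4 of these are on the visceral endoderm marker list, which was chosen with earlier results of these data known. As the 6 genes had been chosen for spread between libraries that include these females, the female comparison is not independent of that choice. The calls of the 4 members are therefore description only. The females of a genotype lay close together, within 1.10-fold for Cubn in WT and 1.45-fold in MommeD43, and within 1.01-fold and 1.03-fold for Dab2.

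In the male pair, with 1 library per genotype and no test, MommeD43 was higher for all 6 genes. It was 3.35-fold higher for Cubn, 3.28-fold for Vil1, 2.45-fold for Dab2, 1.82-fold for Lgmn, 1.79-fold for Amn and 1.63-fold for Lrp2. The WT male was WT replicate 1, which had the lowest voom sample weight, 0.33. The MommeD43 male was the shallowest library, at 10957916 reads. Lower MommeD43 females together with a higher MommeD43 male were seen in 5 of 6 members, against 13.0% of all tested genes. Nothing is read from the member count, since the members were chosen for spread over these libraries. Sex, mother and embryo cannot be told apart here, since the males shared a mother and each sex held at most 2 embryos per genotype.

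**Figure D2:**
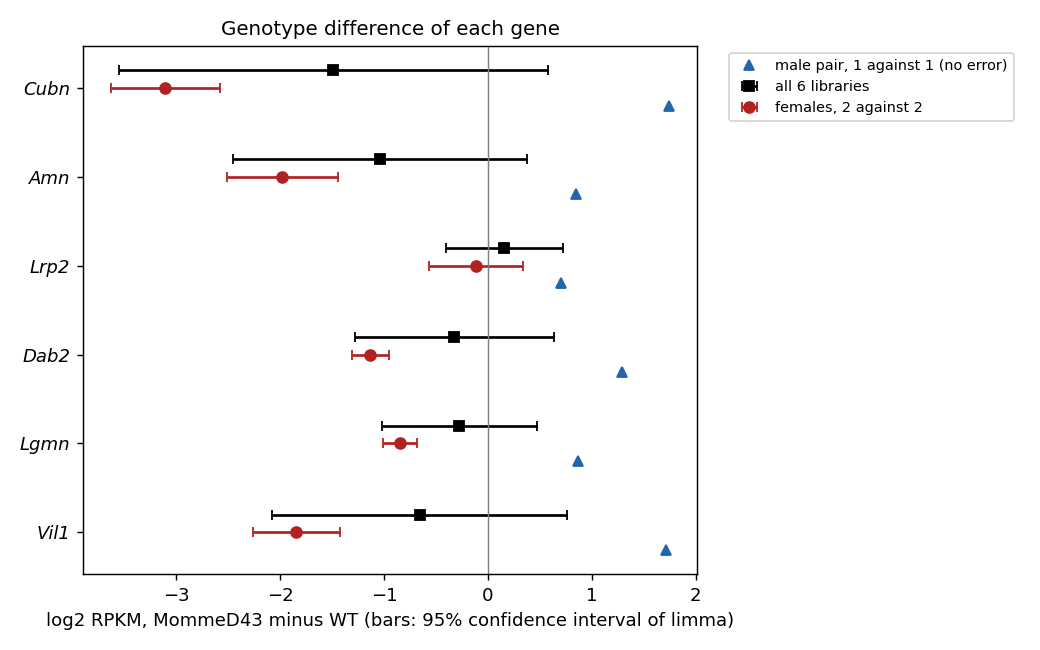
Difference in log2 RPKM, MommeD43 minus WT, for each gene over all 6 libraries and in the females (both with the 95% interval from limma), and in the male pair (1 value, no interval). The intervals over all libraries include 0 for the 6 genes, the values in the females lie below 0 (from -3.11 for Cubn to -0.12 for Lrp2), and the male pair lies above 0.

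Other genes of the uptake pathway are given from lists of partners, lysosomal genes and brush border genes. Of 20 partners of endocytosis (adaptors, clathrin, the AP-2 complex and sorting proteins), 18 were tested, 0 were called in either direction and 9 had a lower mean in MommeD43. Their median log2 fold change was -0.01 and their median range between libraries was 0.26 on the log2 scale. All tested genes had medians of 0.00 and 0.37. The 6 members had medians of -0.49 and 1.89, and as they were chosen for spread, their wider range is a result of that choice. The partner with the widest range was Myo6, the motor that moves endocytic vesicles along actin and binds Dab2. Myo6 was at 0.794, 1.84 and 1.98 RPKM in the WT replicates and 2.18, 0.795 and 0.791 RPKM in the MommeD43 replicates, so it was high in the same 3 libraries as Dab2. Cltb, a clathrin light chain, and Rab11a, of recycling endosomes, followed with ranges of 0.81 and 0.50. Clta, the other clathrin light chain, was the steadiest, at 84.1 to 92.0 RPKM. Ehd1 was listed without a read in any library.

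Of 15 lysosomal genes, 14 were tested and 0 were called, with 6 lower in MommeD43, a median log2 fold change of 0.03 and a median range of 0.38. The cathepsins Ctsh, Ctsc and Ctsz had the widest ranges, 1.85, 1.47 and 0.66 on the log2 scale. Ctsh was at 2.54, 4.11 and 3.42 RPKM in the WT replicates and 5.42, 1.50 and 1.83 RPKM in the MommeD43 replicates, with the same highest and lowest libraries as Lgmn. Ctsa, which encodes a protective carboxypeptidase, had the narrowest range, at 14.4 to 16.2 RPKM.

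Of 12 brush border genes, 11 were tested and 0 were called, with 7 lower in MommeD43, a median log2 fold change of -0.13 and a median range of 1.03. The widest ranges belonged to Anks4b, Cdhr2 and Cdhr5, which encode parts of the complex that links the tips of microvilli. Anks4b had at most 18 reads in a library and 0 in MommeD43 replicate 3, which allows up to 0.0588 RPKM. Cdhr2 was at 0.245, 0.697 and 0.699 RPKM in the WT replicates and 1.26, 0.0666 and 0.0925 RPKM in the MommeD43 replicates, on 5 to 68 reads. Cdhr5 was at 0.0837 to 0.566 RPKM, on 3 to 27 reads. Ezr, which ties actin to the apical membrane in many epithelia, was the steadiest, at 56.9 to 61.0 RPKM. These counts for the tip-link genes were low, and Cdhr2 shared the highest and lowest libraries of Vil1.

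**Figure D3:**
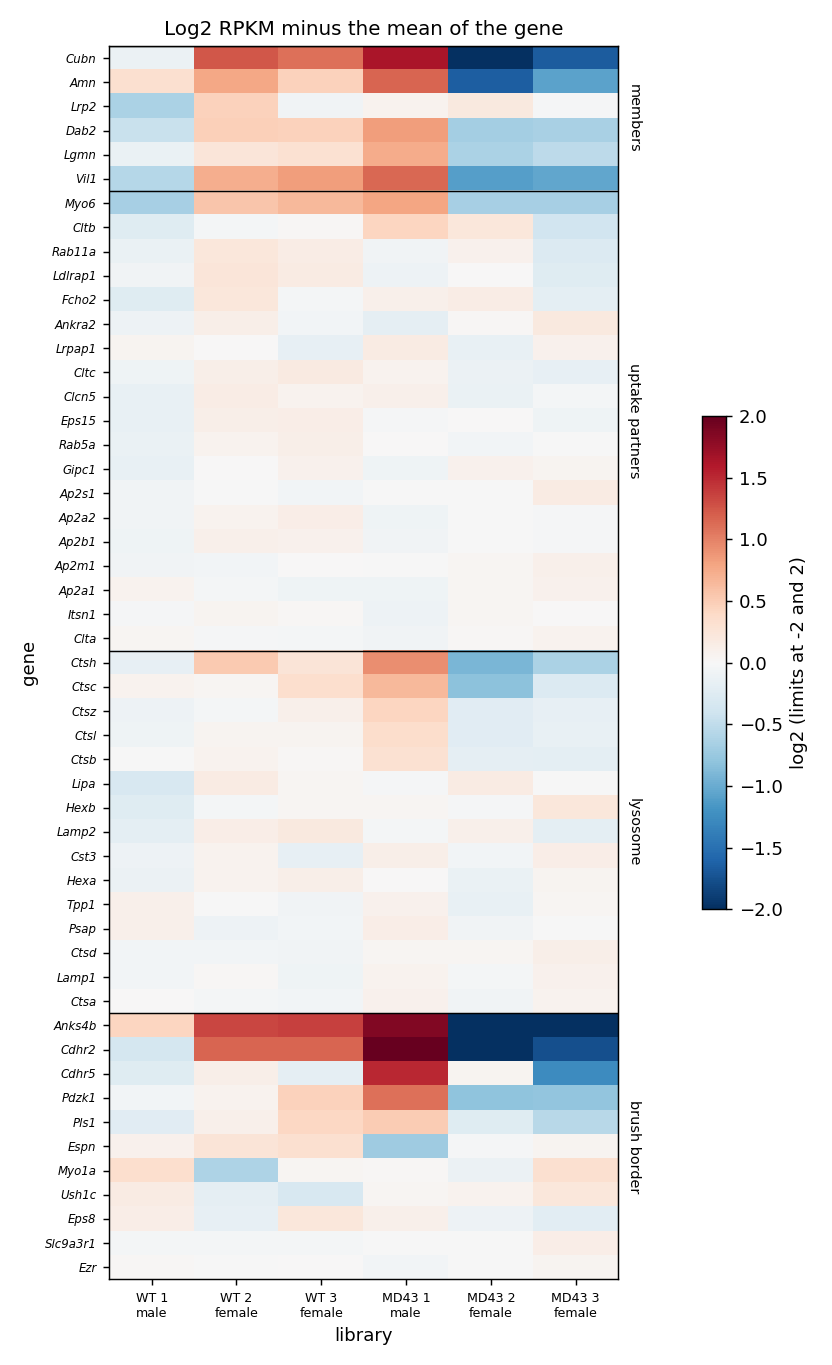
Log2 RPKM of each gene minus its own mean over the 6 libraries, for the 6 members and the partner, lysosome and brush border genes that passed the filter, with colour limits at -2 and 2. Most partner and lysosome genes are near 0 in every library. Myo6, Ctsh, Ctsc and Cdhr2 are among the genes high in MommeD43 replicate 1 and low in MommeD43 replicates 2 and 3, like most members. MommeD43 replicate 1 was highest and MommeD43 replicate 2 or 3 lowest in 6 of 14 lysosome and 5 of 11 brush border genes tested. The share was 2 of 18 for partners and 6.21% for all tested genes. These counts ignore the size of the range, and take in Ctsa, at 14.4 to 16.2 RPKM, and Cdhr5, on 3 to 27 reads. The lists were chosen with earlier results of these data known, so the counts are description only.

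Among 7 cargo and ligand genes, 4 were tested and 0 were called. Apoe, the apolipoprotein bound by receptors of the LDL receptor family, was at 43.1, 60.4 and 57.5 RPKM in the WT replicates and 92.5, 20.6 and 33.8 RPKM in the MommeD43 replicates. Clu and Tcn2, whose product carries cobalamin, had ranges of 0.62 and 0.40 on the log2 scale, and Lpl had the narrowest at 0.34. Alb, Gc and Cblif had at most 2 reads in any library. Of 7 regulators of endoderm, 6 were tested and 0 were called. Lhx1 and Gata4 had the widest ranges, 2.06 and 1.12, and Gata6 the narrowest, 0.56. Gata4, a transcription factor of the visceral endoderm and the heart, was at 4.82 and 2.21 RPKM in MommeD43 replicates 1 and 2. Gata6 was at 2.27 and 2.61 RPKM there, and Lhx1 was highest in MommeD43 replicate 3, at 2.12 RPKM. Of the 6 tested, 2 were highest in MommeD43 replicate 1 and lowest in MommeD43 replicate 2 or 3, against 6.21% of all tested genes.

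Markers of the visceral endoderm moved with the members. Of the 12 listed, 11 passed the filter and Rhox5 had at most 1 read in any library. Their summed level was 295, 426 and 453 RPKM in the WT replicates and 639, 197 and 208 RPKM in the MommeD43 replicates. The summed level of the 6 members was 43.1, 66.7 and 65.6 RPKM in WT and 87.9, 31.4 and 33.3 RPKM in MommeD43. All 10 tested markers were highest in MommeD43 replicate 1 and lowest in MommeD43 replicate 2 or 3, as were 5 of the 6 members, against 6.21% of all tested genes. That pattern is part of the spread for which the members were chosen, so nothing is read from their count. The marker list was chosen with earlier results of these data known, so its count is description too. Ttr, the thyroxine carrier, ran from 12.5 to 108 RPKM and Afp, alpha-fetoprotein, from 4.54 to 64.0 RPKM. Cited1, the remaining marker and an X-linked gene, was at 107 to 133 RPKM and did not share the pattern. In bulk tissue, fewer cells of a type and less RNA per cell cannot be told apart, and the part of the visceral endoderm markers in the member values was not tested.

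The other marker lists did not all differ between libraries in the same way. Gut endoderm markers summed to 382 to 487 RPKM in WT and 466 to 505 RPKM in MommeD43. Krt8, Krt18 and Cldn6 were at 126, 119 and 73.9 RPKM of the 382 RPKM in WT replicate 1, so the sum says little on the other gut markers. Nephric markers, of another tissue that makes megalin and cubilin, summed to 14.9 to 19.7 RPKM in WT and 15.7 to 20.7 RPKM in MommeD43, lowest in the males. Neural markers summed to 19.2 to 21.7 RPKM over the 6 libraries. Tailbud markers summed to 763, 552 and 537 RPKM in the WT replicates and 553, 645 and 662 RPKM in the MommeD43 replicates. They were thus lower in WT replicates 2 and 3 and MommeD43 replicate 1, the libraries with most Cubn. Of the 10 tailbud markers tested, 0 had a lower mean in the MommeD43 females than in the WT females. The part of the tissue mix in the member values was not tested.

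Primitive blood markers summed to 9.33, 488 and 206 RPKM in the WT replicates and 26.0, 222 and 23.5 RPKM in the MommeD43 replicates, so MommeD43 replicate 1, highest for the members, was among the low ones. Endothelial markers summed to 43.5, 61.8 and 51.3 RPKM in the WT replicates and 61.1, 48.5 and 47.4 RPKM in the MommeD43 replicates. They were thus higher in WT replicates 2 and 3 and MommeD43 replicate 1, the libraries with most Cubn. Macrophage markers summed to 0.472 to 0.979 RPKM, with Cx3cr1 and Adgre1 without a read in any library. Trophoblast and decidua markers summed to 14.1, 1.98 and 11.3 RPKM in WT and 22.4, 27.3 and 6.02 RPKM in MommeD43, with Prl8a9 at no more than 2 reads. The part of these cell types in the member values was not tested.

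**Figure D4:**
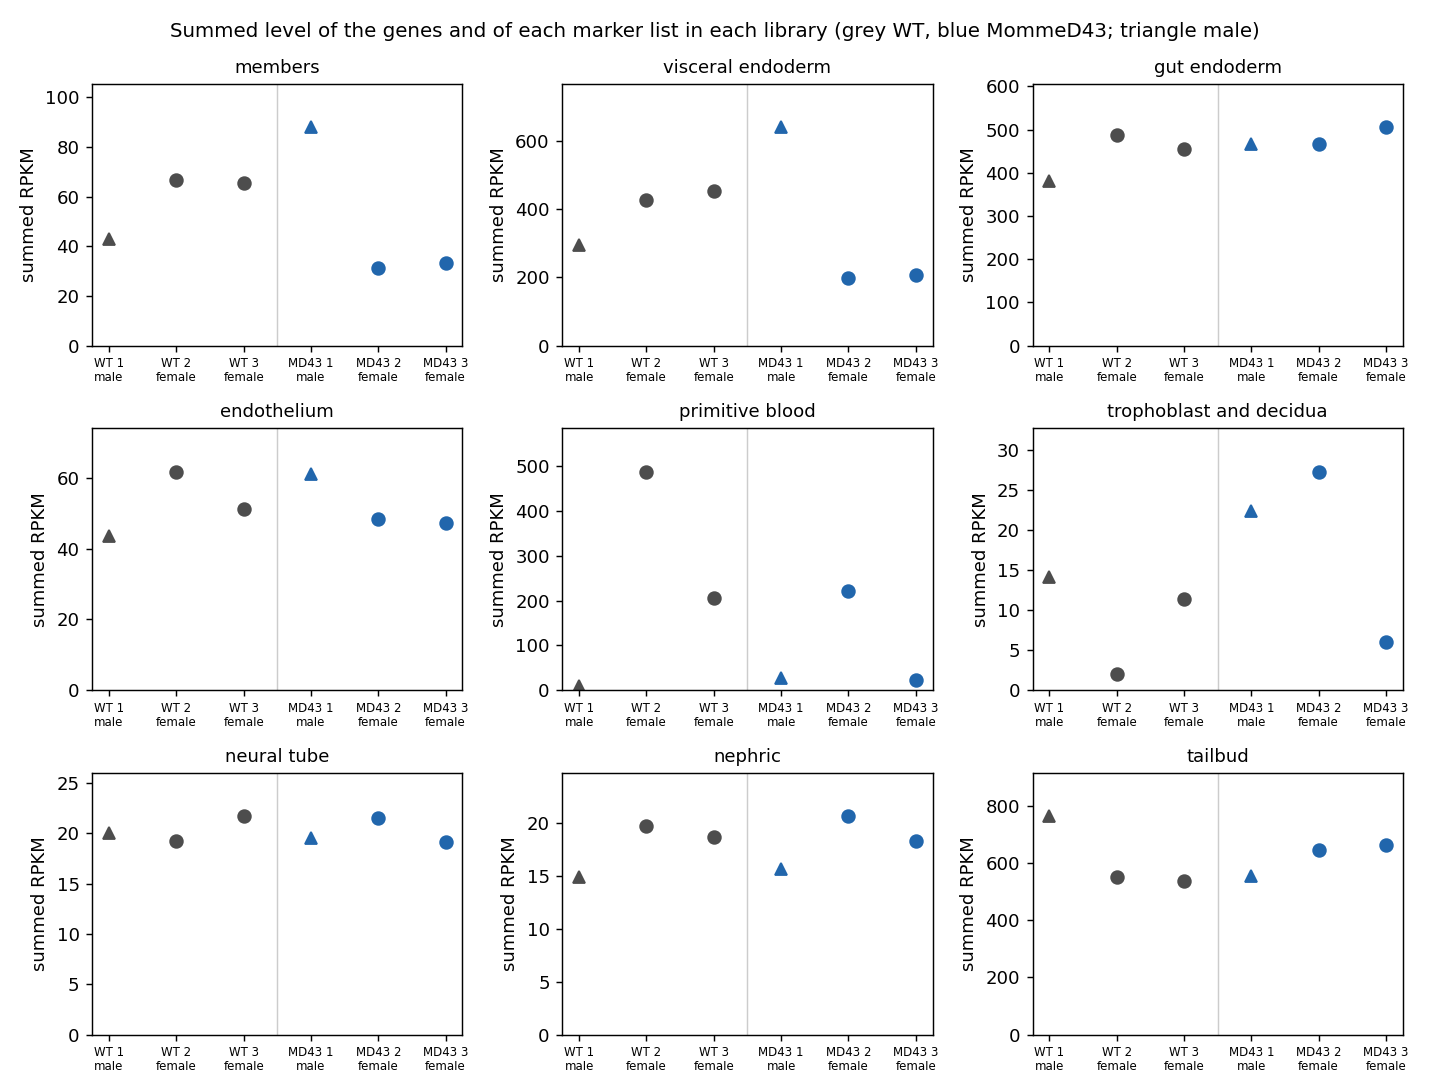
Summed RPKM (axes from 0) of the members and of 8 marker lists in each library, grey for WT, blue for MommeD43 and triangles for males. The visceral endoderm sum follows the member sum, from 197 to 639 RPKM, while the gut endoderm, neural tube and nephric sums differ less between libraries. The endothelium sum, from 43.5 to 61.8 RPKM, is also higher in WT replicates 2 and 3 and MommeD43 replicate 1.

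The genes most like Cubn and Dab2 were sought among 13611 tested genes by the root mean square difference of centred log2 profiles over the 6 libraries. For Cubn these were Slc7a9 (0.14), a subunit of an amino acid transporter, Cdhr2 (0.19), Apom (0.31), Apob (0.33), Mcoln2 (0.34), Ttr (0.35), Soat2 (0.40), which esterifies cholesterol, and Muc13 (0.41), a membrane mucin. Slc7a9 was at 0.347, 0.823 and 0.922 RPKM in the WT replicates and 0.955, 0.0790 and 0.114 RPKM in the MommeD43 replicates. For Dab2 these were Myo6 (0.13), Mttp (0.14), which loads lipid onto apolipoprotein B, Foxj1 (0.15), a regulator of motile cilia, Tdh (0.16), Ctsh (0.18), Slc39a4 (0.20), a zinc importer, Jazf1 (0.20) and Spink1 (0.20). Mttp was at 2.96, 4.92 and 4.84 RPKM in the WT replicates and 6.47, 2.58 and 2.97 RPKM in the MommeD43 replicates. No gene was in both sets. Cubn and Dab2 themselves differed by 0.92 on this measure, too far for a shared gene within 0.41 of Cubn and 0.20 of Dab2. The lack of a shared gene was thus fixed in advance, and nothing is read from it. Of the 16 genes, 4 were on the visceral endoderm marker list (Apom, Apob, Ttr and Spink1), which was chosen with earlier results of these data known.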

How the data were processed

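Tailbud RNA of 6 embryos was sequenced as polyA libraries from a stranded kit. Per the submitters' processing notes and the study's methods, the authors trimmed reads with Trim Galore 0.4.4, mapped them with HISAT2 2.0.5 to GRCm38.p6 and quantified genes with SeqMonk. The deposited values are log2 RPKM, which the authors scaled by library size and transcript length, and the authors' mean columns were not used. Whether counting used strand is not given in the sources used here. Exons of other genes on the opposite strand cover 2.46% of Cubn, 2.87% of Dab2 and 1.38% of Vil1.

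Of 35591 rows, 35555 matched GENCODE M21. Reads were recovered from RPKM, exon length and library total, and 99.1% of 105817 values above 1 read came out whole within 0.02. Genes without a read sit at 0.9 read in the table. The filter on low values asked for 3 libraries at or above the CPM of 10 reads in the library of median depth, and for 15 reads in total. Library totals were 10957916 to 47298348 reads, intervals are exact Poisson at 95%, and 3 reads is the floor of a library.

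Groups came from the labels. Autosomal genes (13617) were tested, WT against MommeD43, on the deposited log2 values by limma 3.58.1 in R 4.3.3 (trended prior variance, two-sided p, Benjamini-Hochberg adjustment over all of them). The script was tested on simulated data. Alternatives were median-ratio scaling, pseudocounts of 0.1 and 1, no filter, a mean of at least 1 RPKM, sex as a covariate, a replicate block, females alone, leaving out each library, and voom with sample weights on recovered reads. The members and gene lists were chosen with earlier results of these data known. Besides the members, the text names the 3 genes with the widest and the gene with the narrowest range in each pathway list, marker genes at or below 3 reads everywhere, and the 8 genes most like Cubn and Dab2. Other genes (T, the neural markers above 3 reads, Ttr, Afp, Cited1, Krt8, Krt18, Cldn6 and the female calls) were named after their values were seen. Promoters are RefSeq windows on GRCm38.p6. X-linked genes were not tested. A gene that the naming rule selects among the endoderm regulators, and a motif, are not reported here.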

Additional observations from a re-analysis of the deposited data

Results flagged for a closer look

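For 5 of the 6 genes the MommeD43 difference ran one way in every female and the other way in the male pair, and the difference between the sexes was not tested, since each genotype had 1 male. For Cubn it was -3.11 in the females and 1.75 in the male pair, on the log2 scale, MommeD43 minus WT. For Amn it was -1.98 in the females and 0.84 in the male pair. For Dab2 the values were -1.13 and 1.29, for Lgmn -0.85 and 0.87, and for Vil1 -1.84 and 1.71, females first. The same opposite directions were seen in 13.0% of all tested genes. Such a pattern adds to the spread for which the members were chosen, so the 2 shares are not a test. Lrp2 was the exception, because its females overlapped. The male values rest on WT replicate 1, with the lowest voom sample weight (0.33), and on MommeD43 replicate 1, the shallowest library.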

How the results depend on the processing

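The 6 fold changes were recomputed under 15 alternatives, and 83 of 90 values kept their direction and their side of the threshold. The filter settings, sex as a covariate and the replicate block cannot change a fold change in this design. They can move only its error and p-value, so their kept directions were fixed in advance. With the females alone, Cubn (-3.11), Dab2 (-1.13), Lgmn (-0.85) and Vil1 (-1.84) passed an adjusted p of 0.05, and 10 genes in all were called against 0 in the 6 libraries. These member calls are description only, since the members were chosen for spread over libraries that include the females. The other 14 alternatives called 0 genes by limma (187 to 944 had an unadjusted p under 0.05), and the partner, lysosome and brush border lists had 0 calls under all 15. Lrp2 (0.16 over all libraries) turned to -0.12 with the females alone, to -0.12 without WT replicate 1 and to -0.0080 with voom, and the cause was not tested. Leaving out each library in turn gave -2.67 to -0.76 for Cubn, -1.88 to -0.47 for Amn, -0.82 to -0.06 for Dab2, -0.71 to -0.03 for Lgmn and -1.40 to -0.27 for Vil1, each lowest without MommeD43 replicate 1 and highest without MommeD43 replicate 2. For Lrp2 it gave -0.12 to 0.43, lowest without WT replicate 1 and highest without WT replicate 2.

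The replicate block called 0 genes, with 307 at an unadjusted p under 0.05. As each genotype held every replicate number, the block could not change the fold changes of Cubn (-1.49) and Dab2 (-0.32). The SE of Cubn was 0.96 with the block and 0.90 without it. Only number 1 joined embryos of the same mother, and the numbers as a whole were not taken to pair the samples. The deviations of same-numbered libraries correlated at -0.03, 0.17 and -0.17 across genes, and not every library correlated best with its own number. With 3 embryos per genotype, the intervals of the fold changes were wide (-3.55 to 0.57 for Cubn), while the counting interval of Cubn in a library was narrow (6.51 to 7.32 RPKM in MommeD43 replicate 1).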
